A study of Homo sapiens with 4 samples.

Results

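IL24, IL6 and 8 further cytokine genes were followed in human triple-negative breast cancer (TNBC) cells treated with mebendazole (MBZ). These 10 genes, out of 58735 in the count table, were LIF, IL11, IL1A, IL1B, IL33, CSF1, CSF2 and CSF3 besides the first pair. They were picked with their changes after MBZ already known, so the changes are given as a description, with no test. All 10 symbols matched 1 Ensembl identifier each.

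MBZ is an anthelmintic drug that binds tubulin. MDA-MB-231 and SUM159 are established TNBC lines, and each was cultured with MBZ at 1 μM or with its solvent DMSO for 72 h. RNA enriched for mRNA was sequenced from 1 sample per condition, which gave 4 libraries: MDA-MB-231 with DMSO, MDA-MB-231 with MBZ, SUM159 with DMSO and SUM159 with MBZ. The labels name no genetic change in either line. Each comparison within a line is therefore between 2 libraries and has no replicate check.

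Cytokines are secreted proteins that act on receptors of the same or of neighboring cells. IL24 belongs to the IL-10 family, and IL6, LIF and IL11 signal through the shared receptor subunit gp130 to JAK kinases and STAT3. IL1A, IL1B and IL33 belong to the IL-1 family, whose receptors act through MyD88 and NF-kB. CSF1, CSF2 and CSF3 drive the survival and maturation of macrophages and granulocytes, and many breast tumor cells make them. Several of these genes are induced by NF-kB, AP-1 and C/EBP factors, and their mRNAs often carry AU-rich elements in the 3′ UTR that speed decay.

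The libraries held 17143139 to 24897586 counts on genes. Counts were scaled by the TMM method within each line, and fold changes are MBZ over DMSO on the log2 scale. Scaling by total counts would shift the all-gene median up by 0.27 for MDA-MB-231 and by 0.30 for SUM159. Intervals are 95% Clopper-Pearson intervals on a gene's reads in the 2 libraries. They cover counting error only, and without molecular identifiers PCR copies of 1 molecule are counted as separate reads. Of the lines' markers, PGR had 0 counts in all libraries, and ESR1 had 1, 0, 2 and 18 counts in the order given above. ERBB2 was read in each library, with 1216 to 1996 counts. KRT19, an epithelial keratin, had 12386 and 6608 counts in MDA-MB-231 and 1 and 13 in SUM159.

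The promoters of the members that hold a motif of these factors are shown, together with that of IL24, the member that changed most in MDA-MB-231, whose window held none. RefSeq promoter entries were found for 7 of the 10 genes (IL24, IL6, IL11, IL1A, IL1B, IL33 and CSF2). Each line gives the 160 bases before a transcription start on GRCh38.p14, 5′ to 3′ on the gene's strand, and capitals mark motif matches on either strand.
IL24 (chr1:206897283-206897442, plus strand): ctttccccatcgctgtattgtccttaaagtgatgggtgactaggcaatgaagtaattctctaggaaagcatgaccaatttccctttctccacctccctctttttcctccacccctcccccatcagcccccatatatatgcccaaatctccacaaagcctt
IL6 (chr7:22727040-22727199, plus strand): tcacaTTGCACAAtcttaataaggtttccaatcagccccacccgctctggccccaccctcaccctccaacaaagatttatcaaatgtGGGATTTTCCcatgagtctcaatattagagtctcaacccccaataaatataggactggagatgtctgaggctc
IL11 (chr19:55370464-55370623, minus strand): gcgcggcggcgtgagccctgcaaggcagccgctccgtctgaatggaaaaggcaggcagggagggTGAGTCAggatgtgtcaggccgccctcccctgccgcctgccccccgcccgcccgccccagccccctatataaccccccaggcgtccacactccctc
IL1A, second listed start (chr2:112784401-112784560, minus strand): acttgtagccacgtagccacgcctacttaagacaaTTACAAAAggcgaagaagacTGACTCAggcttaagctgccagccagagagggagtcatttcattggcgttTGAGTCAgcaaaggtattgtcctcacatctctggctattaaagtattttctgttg
IL1B (chr2:112836780-112836939, minus strand): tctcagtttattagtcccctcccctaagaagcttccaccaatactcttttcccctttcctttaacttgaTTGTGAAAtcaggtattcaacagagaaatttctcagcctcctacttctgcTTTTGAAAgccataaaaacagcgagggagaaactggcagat
The motifs searched were AP-1 (TGANTCA), C/EBP (TTNNGNAA) and the NF-kB consensus, over 250 bases before each start. No marked match overlapped another. In IL6 the C/EBP match began 155 bases and the NF-kB match 73 bases before the start. IL11 had an AP-1 match 96 bases before its start. The second start of IL1A had AP-1 matches at 105 and 55 bases and a C/EBP match at 125 bases. Its first listed start had an AP-1 match at 12 bases and C/EBP matches at 199 and 32 bases, of which the AP-1 match and the nearer C/EBP match are the same letters as those at 105 and 125 bases of the second start. IL1B had C/EBP matches at 91 and 41 bases, and 1 more at 215 bases, outside the letters shown. Among 35116 promoters of the same length, 6.57% held the AP-1 motif, 33.2% the C/EBP motif, 9.96% the NF-kB motif and 2.41% both of the last pair. The windows of IL33 and CSF2 also held none of these letters, which says nothing on whether a factor binds there.

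After MBZ, 5 of the 9 members that averaged 10 or more counts in MDA-MB-231 were at least 1.5-fold higher (IL24, IL6, IL11, IL1A and CSF3), where 18.3% of all 15142 genes were. None was at least 1.5-fold lower, where 15.8% of all genes were. In SUM159, 9 of 10 members were at least 1.5-fold higher, where 21.5% of all 15674 genes were, and CSF1 was the 1 member at least 1.5-fold lower, where 21.7% of all genes were. The 5 genes higher in MDA-MB-231 were higher in SUM159 as well, out of 9 members compared in both lines, and 6.12% of 13733 genes were higher in both. The median over the members was 0.75 on the log2 scale in MDA-MB-231 beside -0.02 for all genes, and 4.10 in SUM159 beside -0.03. Because the members were picked on this contrast, these counts describe the choice. The threshold of 1.5-fold is 0.58 on the log2 scale, and the members nearest to it were LIF in MDA-MB-231, at 0.57, and CSF1 in SUM159, at -0.59.

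**Figure D1:**
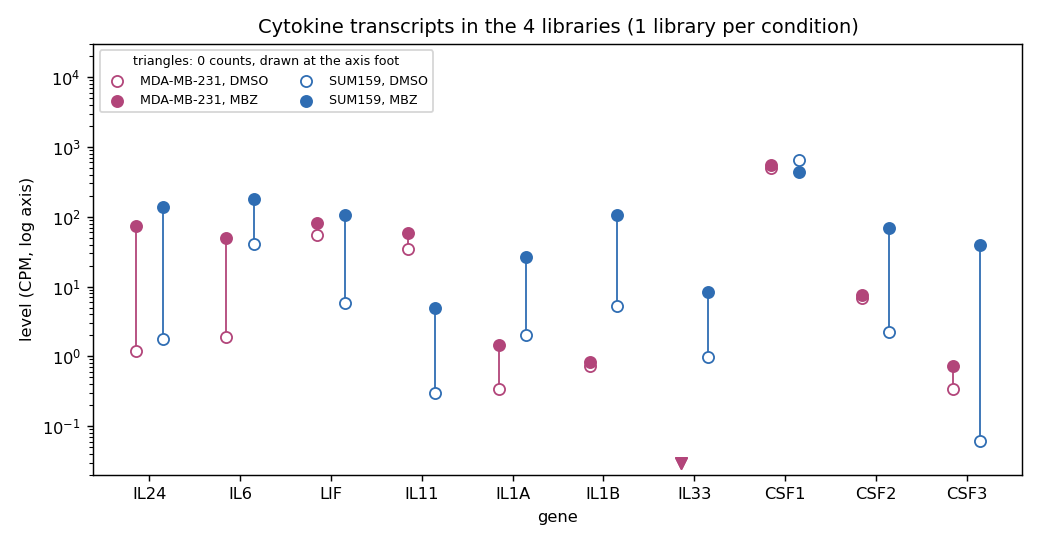
Level of each cytokine transcript in CPM (a gene's counts scaled to library size, log axis) in the 4 libraries, open symbols for DMSO and filled symbols for MBZ, with a line joining the libraries of 1 cell line. IL24 and IL6 were higher with MBZ in both lines, most others were so in SUM159, and CSF1 lay near the top of the plot in every library. IL33 had 0 counts in both MDA-MB-231 libraries.

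IL24, a cytokine studied for killing tumor cells when overexpressed, had the largest change of the members in MDA-MB-231 and the next to largest in SUM159. IL24 (ENSG00000162892, chr1:206897443-206904139 on GRCh38, plus strand, 7 exons) had 28 counts in the DMSO and 1421 in the MBZ library of MDA-MB-231, and 29 and 2856 in SUM159. It was close to silent in both DMSO libraries and among the more abundant cytokine transcripts in both MBZ libraries. In MDA-MB-231 this was a log2 change of 5.93 (interval 5.40 to 6.53), or 61.0-fold. In SUM159 it was 6.30 (interval 5.78 to 6.89), or 78.8-fold. The change in SUM159 minus that in MDA-MB-231 was 0.37 on the log2 scale (interval -0.44 to 1.17), so the counts do not separate the lines. In bulk RNA, a larger share of cells that express a gene and more RNA per cell cannot be told apart.

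FCMR, which encodes the Fc receptor for IgM, lies on the opposite strand and shares 823 exonic bases with IL24, or 41.6% of IL24's exonic length. FCMR had 72 and 251 counts in MDA-MB-231, then 92 and 256 in SUM159. Its log2 fold changes of 2.07 and 1.16 were smaller than those of IL24. Whether the counting used the strand is not given in the sources used here. It is therefore not known whether reads in the shared bases were counted for IL24, for FCMR or for neither gene.

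Of the genes near IL24, the IL-10 family members IL19 and IL20 lie 54.5 kb and 28.2 kb away. In SUM159, IL20 had 7 and 72 counts, which is 3.03 on the log2 scale (interval 1.93 to 4.41), and it had 0 and 2 counts in MDA-MB-231. IL19 had 0 and 30 counts in SUM159, at least 8.03-fold higher against a floor of 3 counts, and 7 and 5 in MDA-MB-231. Both were far below IL24 in every MBZ library. IL10, a cytokine that restrains immune cells and lies 122.9 kb away, had 38 and 3 counts in MDA-MB-231 and 0 and 6 in SUM159. On the side of FCMR, C1orf116 had log2 fold changes of 1.61 and 1.17 and the deubiquitinase gene YOD1 1.24 and 0.62. PFKFB2, also on that side, had 1.13 and -0.21. C4BPB had 543 and 725 counts in MDA-MB-231 and 0 in both SUM159 libraries. The kinase gene MAPKAPK2, beyond IL10 on the other side, had -0.28 and -0.14.

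**Figure D2:**
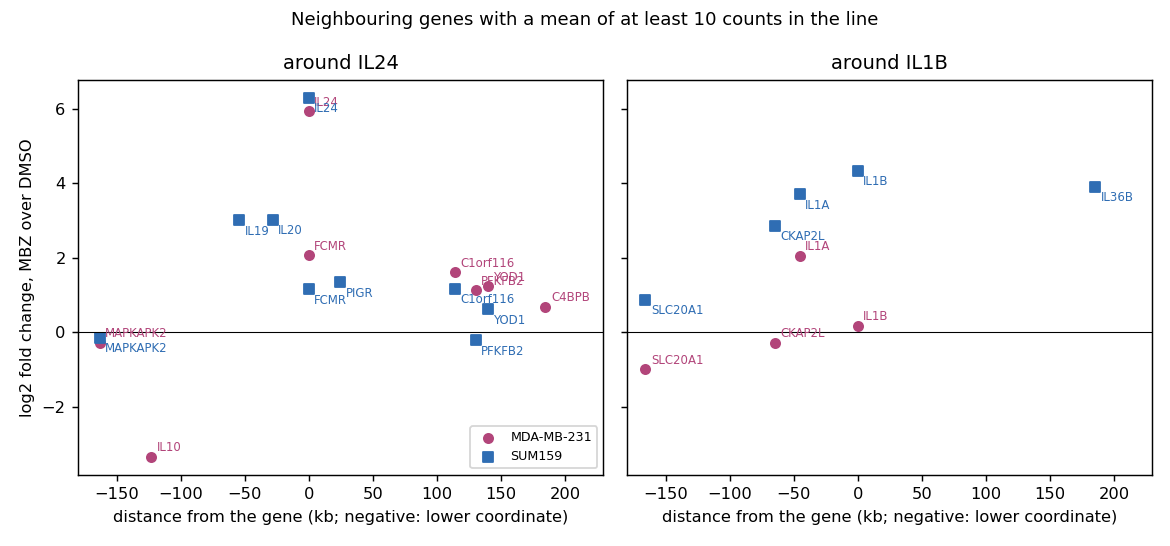
Log2 fold change of protein-coding genes within 200 kb of IL24 (left) and IL1B (right) against their distance in kb, circles for MDA-MB-231 and squares for SUM159, with IL24 and IL1B themselves at 0. Genes that averaged 10 or more counts in the line are drawn, and IL19 is drawn at its bound against 3 counts. IL24 is drawn highest in both lines, although the change of IL19 has no upper limit, and IL1A, IL1B, CKAP2L and IL36B are all above 2 in SUM159 and not in MDA-MB-231, where IL1A alone is.

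By the Euclidean distance of centered log2 CPM over the 4 libraries, the 5 genes most like IL24 were SERPINB2, RELN, PYGM, ENSG00000260660 and ARC, at distances of 1.25, 2.21, 2.44, 2.58 and 2.63. SERPINB2, a serpin that inhibits urokinase, had 0 and 69 counts in MDA-MB-231 and 0 and 65 in SUM159. RELN, which encodes the extracellular protein reelin, had 5, 104, 8 and 144 counts in the 4 libraries. All 5 were low in both DMSO libraries and higher in both MBZ libraries, which follows from their choice by likeness to IL24. With 4 libraries many genes can take such a shape by their line and treatment alone.

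IL6, a cytokine of inflammation and the acute phase, was higher after MBZ in both lines from very different starting levels. IL6 (ENSG00000136244, chr7:22725884-22732002, plus strand, 5 exons) had 44 and 953 counts in MDA-MB-231 and 682 and 3739 in SUM159. Its level in MDA-MB-231 with MBZ was close to that in SUM159 with DMSO, at 44.5 and 36.5 RPKM (CPM per kb of transcript). In MDA-MB-231 it gained 4.71 on the log2 scale (interval 4.27 to 5.18), or 26.1-fold. It was 2.14 (interval 2.02 to 2.26) in SUM159. IL6 was the 1 member higher in both lines whose change was smaller in SUM159, by 2.57 on the log2 scale (interval of the difference -3.06 to -2.12). The antisense gene IL6-AS1, which shares 428 exonic bases with IL6, had 2 to 3 counts in every library.

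The genes most like IL6 over the 4 libraries were UNC13A, IL7R, LINC01619, SPX and CCDC62, at distances of 0.896, 1.15, 1.42, 1.46 and 1.49. IL7R, the receptor of IL-7, had 22 and 330 counts in MDA-MB-231 and 188 and 651 in SUM159. UNC13A, a gene of synaptic vesicle priming, had 7, 165, 118 and 337 counts. Like IL6, these genes were lowest in MDA-MB-231 with DMSO and highest in SUM159 with MBZ, which follows from how they were picked.

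LIF, which sustains stem cells and signals through LIFR and gp130, was already abundant in MDA-MB-231. LIF (ENSG00000128342, chr22:30240453-30246759, minus strand, 3 exons) had 1271 and 1562 counts in MDA-MB-231 and 95 and 2168 in SUM159. The SUM159 library with DMSO was low and the other 3 were high. LIF gained 0.57 on the log2 scale (interval 0.46 to 0.68), or 1.48-fold, in MDA-MB-231 and 4.19 (interval 3.90 to 4.51), or 18.3-fold, in SUM159. Scaling by total counts or by TMM over the 4 libraries placed LIF above 1.5-fold in MDA-MB-231. The difference between the lines was 3.62 (interval 3.31 to 3.96). The antisense gene LIF-AS2, which shares 83 exonic bases with LIF, had 15 and 19 counts in MDA-MB-231 and 1 and 34 in SUM159.

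IL11, which is known for effects on bone and fibrosis, was also low in SUM159 with DMSO, and its level there with MBZ was below that in both MDA-MB-231 libraries. IL11 (ENSG00000095752, chr19:55364382-55370463, minus strand, 5 exons) had 800 and 1117 counts in MDA-MB-231 and 5 and 102 in SUM159. MDA-MB-231 held more IL11 with DMSO than SUM159 did with MBZ. Its change was 0.75 on the log2 scale (interval 0.62 to 0.89), or 1.69-fold, in MDA-MB-231. In SUM159 it was 16.0-fold, with a log2 interval of 2.76 to 5.69. The wide interval in SUM159 comes from the 5 counts with DMSO.

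The IL-1 family members were near silent in MDA-MB-231 and higher after MBZ in SUM159. IL1B, the secreted form that an inflammasome activates, (ENSG00000125538, chr2:112829751-112836816, minus strand, 7 exons) had 17 and 16 counts in MDA-MB-231 and 87 and 2183 in SUM159. The SUM159 library with MBZ stood far above the other 3. For SUM159 this is a log2 change of 4.33 (interval 4.02 to 4.66), or 20.1-fold. In MDA-MB-231 the change was 0.18 (interval -0.90 to 1.26), which is not separable from 0 at this depth. The difference between the lines was 4.15 (interval 3.01 to 5.27).

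IL1A, an alarmin that can act without processing, (ENSG00000115008, chr2:112773925-112784493, minus strand, 7 exons) had 8 and 28 counts in MDA-MB-231 and 33 and 539 in SUM159. It was higher with MBZ in both lines, at a far lower level in MDA-MB-231. The log2 fold changes were 2.06 (interval 0.91 to 3.42) and 3.71 (interval 3.21 to 4.27), and the difference of 1.65 had an interval of 0.17 to 2.94. IL1A and IL1B lie 45.3 kb apart.

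IL33, a nuclear alarmin, (ENSG00000137033, chr9:6215786-6257983, plus strand, 8 exons) had 0 counts in both MDA-MB-231 libraries, which allows up to 0.129 and 0.158 CPM at 3 counts. In SUM159 it had 16 and 175 counts, an 8.73-fold change (log2 3.13, interval 2.39 to 3.97). No fold change was computed for MDA-MB-231.

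Other genes of the IL-1 cluster on chromosome 2 also differed in SUM159. CKAP2L, a mitotic spindle gene 9.26 kb from IL1A, had 71 and 641 counts in SUM159 (log2 fold change 2.86) and 882 and 603 in MDA-MB-231 (-0.28). IL36B had 3 and 58 counts in SUM159 (log2 fold change 3.91, interval 2.34 to 6.28) and 0 in both MDA-MB-231 libraries. IL36RN, the antagonist of the IL-36 receptor, had 3 and 188 counts (log2 fold change 5.60, interval 4.08 to 7.94) in SUM159. IL1RN, the antagonist of the IL-1 receptor, had 0 and 44 counts there, at least 11.8-fold higher against 3 counts. These antagonists had 0 counts in both MDA-MB-231 libraries, so agonists and these antagonists of the family were both higher in the SUM159 library with MBZ. IL1R2, the decoy receptor of IL-1, had 46 and 6 counts in SUM159 (log2 fold change -3.23, interval -4.77 to -2.02), and SIGIRR, an inhibitory receptor of the family, had 457 and 539 (-0.08). In MDA-MB-231, IL1R2 had 3 and 14 counts and SIGIRR had 869 and 252 (-1.51).

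The 3 colony-stimulating factors behaved differently from each other. CSF1, the main growth factor of macrophages, (ENSG00000184371, chr1:109910242-109930992, plus strand, 9 exons) had 11544 and 10519 counts in MDA-MB-231 and 10803 and 8916 in SUM159. It was abundant in all 4 libraries. Its change on the log2 scale was 0.14 (interval 0.10 to 0.18) in MDA-MB-231 and -0.59 (interval -0.63 to -0.55), or 1.51-fold lower, in SUM159. The value in SUM159 passed 1.5-fold with TMM scaling and not with DESeq2 size factors or total counts. The difference between the lines was -0.73 (interval -0.79 to -0.68).

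CSF2, known as GM-CSF, (ENSG00000164400, chr5:132073789-132076170, plus strand, 4 exons) had 158 and 144 counts in MDA-MB-231 and 37 and 1432 in SUM159. CSF2 changed by 0.14 on the log2 scale (interval -0.20 to 0.47) in MDA-MB-231 and 4.95 (interval 4.49 to 5.47), or 31.0-fold, in SUM159. With DMSO it was higher in MDA-MB-231, and with MBZ it was higher in SUM159.

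CSF3, known as G-CSF and the growth factor of neutrophils, (ENSG00000108342, chr17:40015361-40017813, plus strand, 5 exons) had 8 and 14 counts in MDA-MB-231 and 1 and 825 in SUM159. The 3 libraries other than SUM159 with MBZ were near the floor. The log2 fold change in SUM159 was 9.22 (interval 6.89 to 14.68), and it rests on 1 count with DMSO. With a prior count of 2 it was 7.90. In MDA-MB-231 it was 1.07 (interval -0.27 to 2.54), which is not separable from 0 at this depth although it passed 1.5-fold. The genes flanking CSF3 had small changes in SUM159, with 0.38 for the proteasome gene PSMD3 and -0.06 for the Mediator gene MED24.

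**Figure D3:**
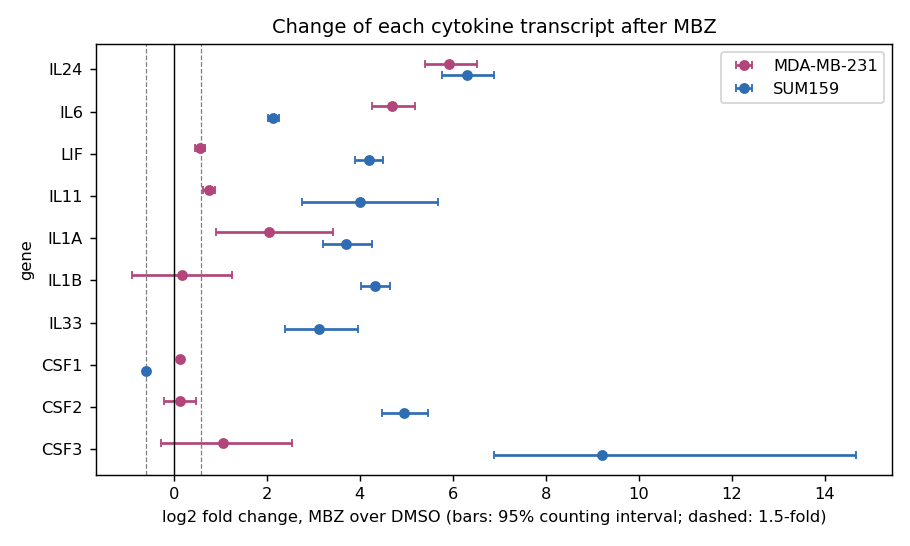
Log2 fold change of MBZ over DMSO for each cytokine, with 95% counting intervals, in MDA-MB-231 and SUM159. Dashed lines mark 1.5-fold. IL24 and IL1A have overlapping intervals in the lines, IL6 is higher in MDA-MB-231, CSF1 lies on opposite sides of 0, and LIF, IL11, IL1B, CSF2 and CSF3 lie further to the right in SUM159.

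With DMSO alone, the lines differed in which cytokines they expressed. Of 8 members that averaged 10 or more counts over these libraries, 3 were at least 1.5-fold higher in SUM159 (IL6, IL1A and IL1B), where 30.5% of 15559 genes were. LIF, IL11 and CSF2 were at least 1.5-fold lower in SUM159, where 31.1% of all genes were. These shares are 3 of 8 in each direction, near the background. IL6 was 21.4-fold higher in SUM159 (log2 4.42, interval 3.99 to 4.90). IL11 was 113-fold higher in MDA-MB-231, a log2 difference of -6.82 (interval -8.48 to -5.62). LIF was 9.63-fold higher in MDA-MB-231 (log2 -3.27, interval -3.59 to -2.97). IL24 did not differ beyond counting error (log2 0.52, interval -0.28 to 1.33). LIF, IL11 and CSF2, lower in SUM159 with DMSO, changed more in SUM159 after MBZ, and IL6, lower in MDA-MB-231, changed more there. IL1A and IL1B were higher in SUM159 with DMSO and also changed more there. The change after MBZ and the DMSO comparison share the DMSO libraries, so these values are not independent.

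Levels can be compared between genes per length, as RPKM on the canonical transcript. How reads in the bases that IL24 shares with FCMR were counted is not known. If they were left out, the RPKM of IL24 would be too low. Its place in the order and its share of the sum carry that limit. In both DMSO libraries CSF1 was the highest, at 124 RPKM in MDA-MB-231 and 163 RPKM in SUM159. In MDA-MB-231 with DMSO it was followed by IL11 at 14.5 and LIF at 14.1 RPKM, whose counting intervals overlap, and by CSF2 at 8.63 RPKM. IL6 was at 1.68 and IL24 at 0.610 RPKM, and the intervals of IL24, IL1B, CSF3 and IL1A each overlapped the next. With MBZ the order was CSF1 at 139, IL6 at 44.5, IL24 at 37.8, IL11 at 24.7, LIF at 21.2 and CSF2 at 9.61 RPKM, with no overlap between neighbors in this order. Over the merged exons of all transcripts, a length chosen as an alternative after seeing the data, IL6 would be at 11.6 RPKM in this library, below CSF1, IL24, IL11 and LIF, and its share of the members' summed RPKM would be 5.55% in place of 16.0%. IL1A, IL1B and CSF3 remained under 1 RPKM, with intervals that overlapped in turn.

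In SUM159 with DMSO, CSF1 was followed by IL6 at 36.5 RPKM, and no other member passed 4 RPKM. With MBZ, IL6 was at 160.9, CSF1 at 108, CSF2 at 88.1, IL1B at 70.2 and IL24 at 70.1 RPKM, of which IL1B and IL24 overlapped. LIF at 27.2 and CSF3 at 26.6 RPKM overlapped as well, and IL33 and IL11, at 3.16 and 2.08 RPKM, were the lowest. Over merged exons, IL6 would be at 42.0 RPKM in this library, below CSF2, CSF1 and IL24. CSF2 would then be the highest, at 88.1 RPKM, above CSF1 at 82.5 RPKM, and IL1B at 35.2 RPKM would be below IL24 at 70.0 RPKM. The order at the top therefore depends on the lengths used, and transcript use was not measured.

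CSF1 made up 75.5% of the members' summed RPKM in MDA-MB-231 with DMSO and 49.8% with MBZ. In SUM159 its share was 77.7% with DMSO and 19.0% with MBZ. The summed level was 165 and 278 RPKM in MDA-MB-231 and 210 and 569 RPKM in SUM159. IL24 went from 0.370% to 13.6% of the sum in MDA-MB-231 and from 0.422% to 12.3% in SUM159. The members thus passed from 1 dominant transcript with DMSO to a spread over IL6, CSF1, CSF2, IL1B and IL24 in SUM159 with MBZ.

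**Figure D4:**
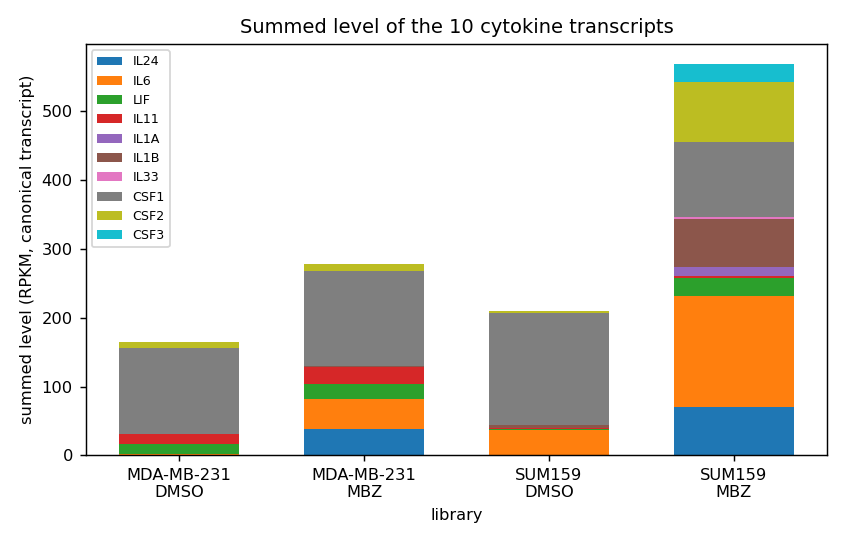
Summed level of the 10 cytokine transcripts in RPKM, stacked by gene, for the 4 libraries. CSF1 (grey) fills most of both DMSO bars, and the SUM159 bar with MBZ, the tallest at 569 RPKM, is divided among IL6, CSF1, CSF2, IL1B and IL24.

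The 3′ UTRs of the members' canonical transcripts were searched for the pentamer ATTTA and the nonamer TTATTTATT of AU-rich elements, on the strand of the mRNA, where a nonamer holds a pentamer. All 10 members held a pentamer, as did 66.5% of 19729 genes. The number per kb of 3′ UTR was 24.9 in CSF2, 14.0 in IL6, 9.79 in IL1B and 8.17 in CSF3, and the lowest was 1.85 in CSF1, beside a median of 1.46 over all genes. The nonamer was in IL11 (6 copies), CSF2 (3), LIF (2) and IL1B (2), and in 8.32% of all genes, with 0.705% holding 3 or more. IL24 had 2.77 pentamers per kb and no nonamer. A match describes the sequence and not the half-life of the mRNA, which was not measured.

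The genes of the cytokines' receptors were called in both directions, and whether the lines differ was not tested. The list also holds OSMR, which is not a receptor of any member. Of 11 receptor genes tested in MDA-MB-231, 4 were at least 1.5-fold higher (IL6R, IL6ST, IL1R1 and IL20RB) and 1 was lower (IL20RA), beside 18.3% higher and 15.8% lower of all genes. Of 12 tested in SUM159, 3 were higher (IL22RA1, IL1RL1 and CSF1R) and 7 were lower (IL20RB, IL6R, IL6ST, LIFR, OSMR, IL1R1 and CSF2RA), beside 21.5% and 21.7% of all genes. The list's median was 0.16 on the log2 scale in MDA-MB-231 and -0.65 in SUM159. IL6ST, which encodes gp130, had 2360 and 4073 counts in MDA-MB-231 and 6543 and 5016 in SUM159, log2 fold changes of 1.06 and -0.70. IL6R, the IL-6 binding subunit, had 22 and 51 counts and 869 and 627 counts, or 1.48 and -0.79. LIFR had 1599 and 800 counts in SUM159, or -1.32 on the log2 scale, and was at 0.04 in MDA-MB-231.

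For IL24, the receptor subunits were mostly scarce. IL20RB had 10 and 20 counts in MDA-MB-231 and 1189 and 464 in SUM159. IL20RA, its partner in 1 form of the receptor, had 47 and 21 counts in MDA-MB-231 and 0 in both SUM159 libraries. IL22RA1, the other partner, had 8 and 9 counts and 24 and 65 counts. Of the CSF2 receptor, the binding subunit CSF2RA had 391, 363, 57 and 47 counts and the signaling subunit CSF2RB 0 to 9 counts. CSF3R, the receptor of CSF3, had 0, 0, 13 and 0 counts.

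**Figure D5:**
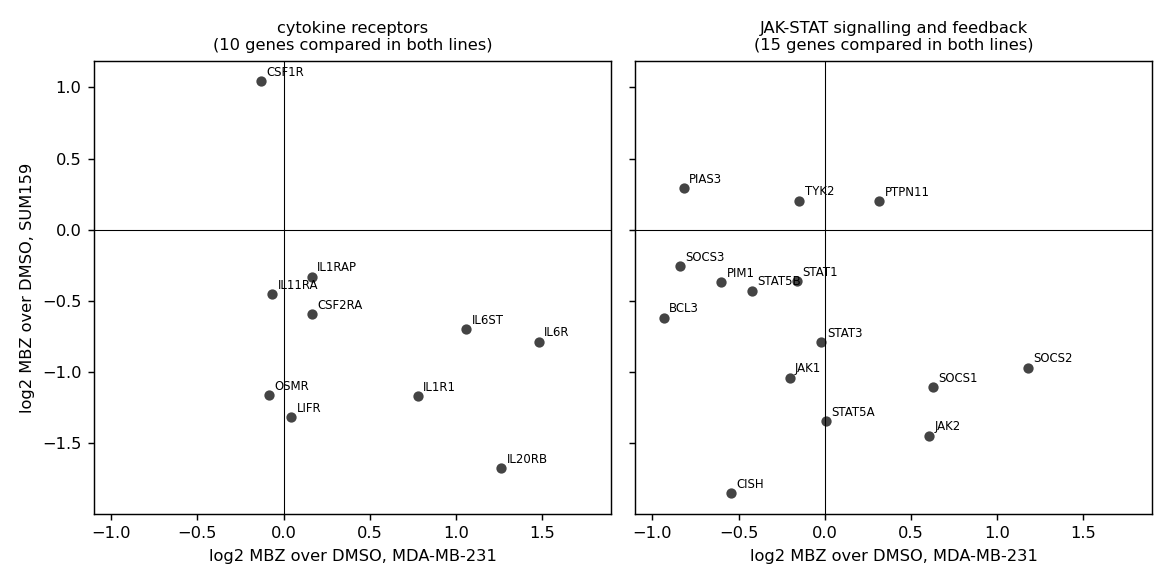
Log2 fold change of MBZ over DMSO in SUM159 (vertical) against MDA-MB-231 (horizontal) for the receptor genes (left) and the JAK-STAT genes (right) that averaged 10 or more counts in both lines. IL6ST, IL6R, IL1R1 and IL20RB lie to the right and below 0, and no JAK-STAT gene is above 0.58 in SUM159.

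Downstream of gp130, 15 JAK-STAT genes were tested in each line. In SUM159, 0 were at least 1.5-fold higher and 8 were lower (JAK1, JAK2, STAT3, STAT5A, SOCS1, SOCS2, CISH and BCL3), beside 21.5% and 21.7% of all genes, with a median of -0.62 on the log2 scale. In MDA-MB-231, 3 were higher (JAK2, SOCS1 and SOCS2) and 4 were lower (SOCS3, PIAS3, PIM1 and BCL3), beside 18.3% and 15.8% of all genes, with a median of -0.16. SOCS3, a feedback gene that STAT3 induces, had 2518 and 1164 counts in MDA-MB-231 and 1255 and 1309 in SUM159, log2 fold changes of -0.84 and -0.26. SOCS3 was at least 1.5-fold higher in neither line, and whether STAT3 was active was not tested.

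Among 12 genes of IL-1 processing and release, 3 of 11 tested in MDA-MB-231 were higher and 4 lower, and 2 were higher and 2 lower of 9 tested in SUM159, where the counts are near the all-gene shares of 21.5% and 21.7%. In MDA-MB-231 those shares were 18.3% and 15.8%. CASP1, the protease that matures IL1B, had 24 and 31 counts in MDA-MB-231 and 921 and 763 in SUM159. PYCARD, the adaptor that links CASP1 to its sensors, had 266 and 117 counts in MDA-MB-231 and 1 and 3 in SUM159. NLRP3, a sensor of the inflammasome, had 66 and 13 counts in MDA-MB-231 and 0 and 39 in SUM159, at least 10.4-fold higher there against 3 counts. The line with the raised IL1B transcript was thus the one with few PYCARD reads. Of 6 decoys and antagonists, 2 were tested in MDA-MB-231 (0 higher, 1 lower) and 5 in SUM159 (3 higher, 1 lower).

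Of 26 other cytokines of the same families, 10 were tested in MDA-MB-231 (4 higher, 2 lower) and 14 in SUM159 (5 higher, 5 lower). The shares over all genes were 18.3% and 15.8% in MDA-MB-231 and 21.5% and 21.7% in SUM159. KITLG, the stem cell factor gene, had 144 and 226 counts in MDA-MB-231 and 1024 and 257 in SUM159, log2 fold changes of 0.92 and -2.31. IL34, the other ligand of the CSF1 receptor, had 0 and 5 counts and 336 and 87 counts. IL15 had log2 fold changes of 1.23 and -0.88. Cytokine genes of SUM159 thus included some over 4-fold lower beside those over 4-fold higher.

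Regulators of cytokine mRNA decay and the C/EBP family were also read. Of 9 decay regulators, MDA-MB-231 had 3 higher and 4 lower, and SUM159 had 1 higher and 2 lower. The SUM159 counts are near or below the all-gene shares of 21.5% and 21.7%. ZC3H12A, an RNase that degrades IL6 mRNA, was higher in both lines, with 152 and 374 counts and 1975 and 3858 counts (log2 fold changes 1.57 and 0.65). Of 7 C/EBP genes tested, counted with NFKBIZ, MDA-MB-231 had 3 higher and 1 lower, and SUM159 had 3 higher and 2 lower. For both of these lists the shares over all genes in MDA-MB-231 were 18.3% and 15.8%. DDIT3, the stress-induced C/EBP factor also called CHOP, had 255 and 1613 counts in MDA-MB-231 and 179 and 590 in SUM159 (2.93 and 1.40). CEBPB, an activator of IL6, had log2 fold changes of 1.34 and -0.16.

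The design allows 1 test across all genes, that of a change shared by the lines, which then take the place of replicates. It was made by the quasi-likelihood test of edgeR, with p-values adjusted after Benjamini and Hochberg. It called 0.00621% of 16100 genes, that is 1 gene, which is a member, so nothing is read from the call. In each of the 7 lists of receptors, decoys, IL-1 processing, JAK-STAT, other cytokines, decay regulators and C/EBP genes, 0 genes were called in either direction. At an unadjusted p under 0.05, BCL3 was lower, and CNTF, ZC3H12A, DDIT3, CEBPG and NFKBIZ were higher, at most 3 genes per list. DDIT3 had the lowest adjusted p of these lists, 0.441, in edgeR's quasi-likelihood test. DESeq2's Wald test called DDIT3 (adjusted p = 0.0164, log2 fold change 2.14) and no other gene of the 7 lists. The gene lists, those of markers below included, were chosen with earlier results of these data known. Calls of their genes are therefore not independent evidence. The fit on every gene with at least 1 count called DDIT3 in these lists. It also called IL36RN, which has 0 counts in both MDA-MB-231 libraries, so that call says nothing of a change shared by the lines.

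Of the 86 protein-coding neighbors within 200 kb of the members, 49 were tested in MDA-MB-231, where 9 were higher and 8 lower, near the all-gene shares of 18.3% and 15.8%. In SUM159, 53 were tested, of which 16 were higher and 7 lower, beside 21.5% and 21.7% of all genes. Near IL11, UBE2S, a mitotic ubiquitin-conjugating enzyme, had log2 fold changes of -0.83 and 2.17 and the ribosomal protein gene RPL28 -0.33 and -1.06. Near IL6, TOMM7 had -0.01 and -0.53 and HYCC1 0.32 and 0.12.

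Markers of other cell types were read because leukocytes and fibroblasts make several of these cytokines. Of 8 leukocyte markers, 3 to 5 had at least 10 counts in each library, and CD3E and SPI1 had 0 to 3 counts in every library. The summed level of the list was 6.71 and 8.47 CPM in MDA-MB-231 and 45.5 and 14.4 CPM in SUM159. In MDA-MB-231, 2 of 4 markers tested were higher and 0 lower, beside 18.3% and 15.8% of all genes. In SUM159, 1 of 4 was higher and 2 were lower, beside 21.5% and 21.7%. With MBZ the number of markers at 0 counts went from 4 to 1 in each line. PTPRC, which encodes CD45, had 8 and 23 counts and 216 and 60 counts. CSF1R had 82 and 62 counts in MDA-MB-231 and 21 and 54 in SUM159. The summed level of 6 fibroblast and endothelial markers was 32.3 and 27.0 CPM and 294 and 109 CPM, and CDH5 had 0 to 6 counts in every library. The edgeR fit on every gene with at least 1 count called falls of COL3A1 (log2 fold change -3.49, adjusted p = 0.00257) and PDGFRB (log2 fold change -2.02, adjusted p = 0.000284), of which COL3A1 had 1 and 0 counts in MDA-MB-231. In edgeR's quasi-likelihood fit on the filtered genes, as in DESeq2's Wald test, 0 markers of this list were called, and in each 3 were lower at an unadjusted p under 0.05. The part of these shifts in the cytokine values was not tested.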

How the data were processed

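mRNA-enriched libraries of the MDA-MB-231 and SUM159 lines, exposed to DMSO or 1 μM MBZ for 72 h, were sequenced, 1 per condition. The authors deposited whole-number read counts per gene without normalization. Per the submitters' processing notes, the tools were STAR 2.5 and HTSeq 0.6.1 (with edgeR 3.16.5 named as well), and the genome was GRCh38. The annotation release and the strand setting are not given in the sources used here. All 4 columns were used, with 17143139 to 24897586 counts each.

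Groups came from the labels. The 10 members, the gene lists and the neighbors were chosen with earlier results of these data known, and members are therefore given without a test. The named genes were the members, the list genes, protein-coding genes within 200 kb, genes with overlapping exons, and the 5 genes nearest to IL24 and to IL6 (log2 CPM with a prior count of 2). Fold changes were differences of log2 CPM (edgeR 4.0.16 in R 4.3.3, TMM within a line, prior count 0.125), counted from 1.5-fold where the 2 libraries averaged 10 counts or more. CPM levels used TMM over the 4 libraries, and RPKM were computed here with the canonical transcript length of GENCODE release 44. A fold against 0 counts was set against 3 counts in the library. Changes alike in both lines were put to the quasi-likelihood test of edgeR (cell line and treatment, filterByExpr, Benjamini-Hochberg adjusted p under 0.05), and with DESeq2 1.42.0 as an alternative. The lines stand in for replicates there, so the p-values do not measure how much cultures of 1 line vary. The functions were tested on simulated counts. The counts of 1 marker gene of the lists are not reported here. Gene coordinates, exons and 3′ UTRs are those of GENCODE release 44 on GRCh38, and promoter letters those of RefSeq on GRCh38.p14.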

Additional observations from a re-analysis of the deposited data

Results flagged for a closer look

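The log2 fold change of CSF1 was 0.14 for MDA-MB-231 and -0.59 for SUM159. It was marked because the single comparison in each line moved to opposite sides of 0, with counting intervals that exclude 0 in each. The difference between the lines was not tested, since each group has 1 library.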

How the results depend on the processing

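All 106 alternative values of the members' log2 differences, after MBZ and between the DMSO libraries, kept their direction under other scalings and prior counts, and 7 moved past the counting interval, all for LIF, IL11, IL6 and CSF1. With a prior count of 2 the log2 fold change of CSF3 in SUM159 went from 9.22 to 7.90, within its wide counting interval. The 5 members at least 1.5-fold higher in MDA-MB-231 became 3 with a mean of at least 100 counts, since IL1A and CSF3 have fewer, and 6 with total counts or TMM over the 4 libraries, which add LIF, and 4 with a fold of 2, which leaves out IL11. The 9 higher in SUM159 became 7 with a mean of at least 100 counts, since IL11 and IL33 have fewer. The 1 member lower in SUM159, CSF1, became 0 with DESeq2 size factors, with total counts and with a fold of 2. Of the members, 3 were higher and 3 lower in SUM159 with DMSO under every scaling tried. For changes alike in both lines, the 1 rise and 0 falls (629 and 521 at an unadjusted p under 0.05) became 44 rises and 55 falls with DESeq2's Wald test, which gave no adjusted p for 16905 of 32295 genes. They became 153 and 145 with every gene with at least 1 count, and 0 rises without cell line in the model. The causes were not tested. With merged exon length, chosen after seeing the data, IL6 made up 11.0% in place of 28.2%, and IL24 18.4% in place of 12.3%, of the members' summed RPKM in SUM159 with MBZ. Leaving out a replicate was not run because each group has 1 sample. No paired analysis was possible because the groups share fewer than 2 replicate numbers, and the cell line term already matches MBZ with DMSO in the test of changes alike in both lines. With 1 to 28 counts in a library, as for CSF3, IL11, IL1A and IL1B, depth limits the fold change to the width of its counting interval.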
